A study of Kluyveromyces lactis with 8 samples.

Results

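Transcript levels were compared between a Kluyveromyces lactis strain lacking SUM1 (sum1∆) and its wild-type reference strain (WT), with 2 libraries each, 4 of the 8 libraries of a series that also holds sir2∆ and sir4∆ strains. The libraries were taken by their titles. All 4 strains were of mating type a (MATa), and all of them, WT included, lacked the silent mating cassettes HML and HMR (hml∆ hmr∆). The WT strain carried SIR2. Cells grew in rich glucose medium (YPD) at 30 °C from an OD of 0.3 to an OD of 1, labelled as early log phase. Each genotype was 1 strain, and the series design calls the libraries of a strain technical replicates. A p-value here thus covers the spread between libraries of the same strain, pooled over the 4 strains, which may be technical, and no more. Of 5076 genes in the deposited tables, 5019 averaged at least 1 FPKM (fragments per kilobase and per M mapped fragments) over the 4 libraries and were tested, and 57 did not.

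Sum1 is a DNA-binding repressor known best from Saccharomyces cerevisiae, where it acts with Rfm1 and the NAD-dependent deacetylase Hst1 to keep middle sporulation genes off in growing cells. K. lactis separated from that lineage before its whole-genome duplication and has a Sir2 deacetylase in place of the Sir2 and Hst1 pair. K. lactis is a milk yeast that respires as well as ferments sugar, so its mitochondrial carbon metabolism is active in glucose medium. Gene roles are given as known from S. cerevisiae, apart from the use of the galactose pathway for lactose.

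Both sum1∆ libraries listed SUM1 at 0, against 31.2 and 28 FPKM in the WT libraries, which matches their labels. No fold change is given for SUM1, since it is listed at 0. The sum1∆ libraries held an estimated 21.6 and 26.1 M reads and the WT libraries 21.7 and 11.8 M, read off the smallest steps in the FPKM of weakly expressed genes. The sum1∆ libraries differed from each other less than the WT libraries did, with a median SD between libraries of 0.03 in sum1∆ and 0.06 in WT on the log2 scale. Of 7 a-specific marker genes 5 were found. STE2, the alpha-factor receptor, had 8.1 and 9.78 FPKM in sum1∆ and 9.35 and 8.35 FPKM in WT, while the a-specific protease gene BAR1 was below 1 FPKM in both WT libraries. The 3 alpha-specific markers found (STE3, SAG1 and AFB1) summed to 48.7 and 44.7 FPKM in sum1∆ and 36.8 and 38.7 FPKM in WT, and none was called. In bulk RNA of this kind, expression in fewer cells and less RNA per cell cannot be told apart.

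In sum1∆ more transcripts rose than fell, and the rises were steeper. A gene was called when limma with an intensity trend gave a Benjamini-Hochberg adjusted p below 0.05 and a log2 fold change of at least 1 in size, on the log2(FPKM + 1) scale. The added 1 makes fold changes of weakly expressed genes too small. By this rule 387 genes rose (7.71% of those tested) and 142 fell (2.83%), so that 10.5% were called and 73.2% of the calls were rises. With quantile normalization the counts were 313 and 198, and 61.3% of calls were rises. The genes that rose were weakly expressed in WT, with a median level of 75.4 FPKM in sum1∆ and 20.6 FPKM in WT. The genes that fell were strongly expressed, with a median level of 81.7 FPKM in sum1∆ and 242.1 FPKM in WT. Over all tested genes the median level was 68.3 FPKM in sum1∆ and 63.2 FPKM in WT. Among the rises 123 reached a log2 fold change of 2, 76 reached 3 and 48 reached 4, whereas 23 falls reached -2 and 4 reached -3. The deleted gene SUM1 is counted among the 142, the 23 and the 4. The median log2 fold change over all genes tested was -0.01. Both sum1∆ libraries lay above both WT libraries for 2146 genes (42.8%) and below both for 2153 (42.9%), so a lack of overlap alone marks no gene.

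**Figure D1:**
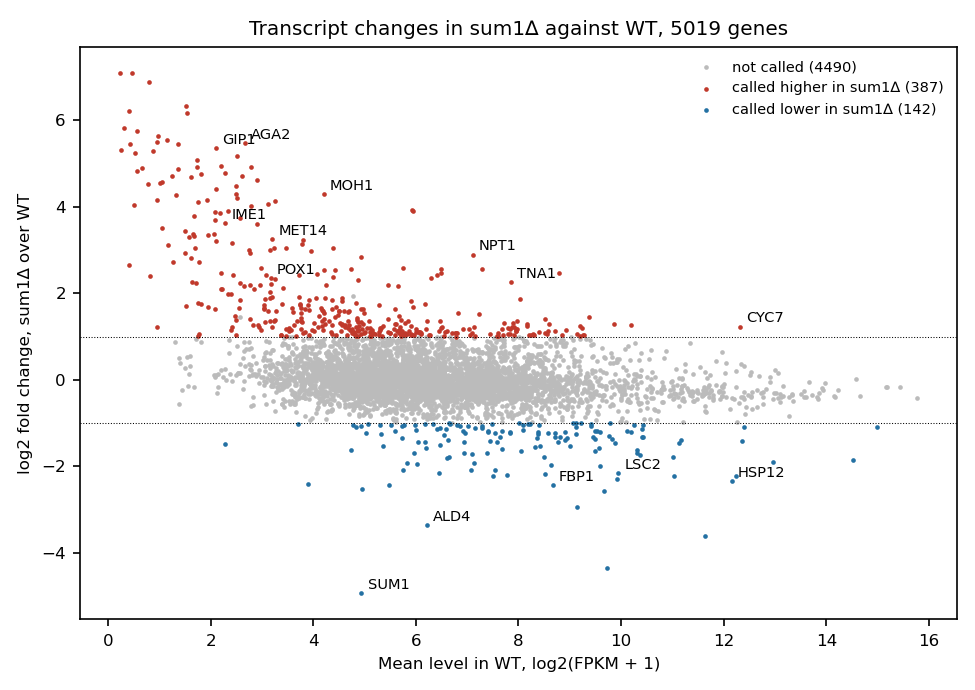
Log2 fold change of each tested gene in sum1∆ over WT (vertical axis, on the log2(FPKM + 1) scale) against its mean level in WT (horizontal axis, log2(FPKM + 1)), with genes called higher in red and genes called lower in blue. The 387 rises lie mostly at low WT levels, and the 142 falls lie mostly at high WT levels; SUM1, listed at 0 in sum1∆, sits lowest.

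The filter on low values let 20 genes with a WT mean below 1 FPKM into the test through their sum1∆ level, and all 20 were called higher, which the filter itself favours. Conversely, 3 tested genes had a sum1∆ mean below 1 FPKM, and 2 of them were called lower. Near the filter, HOP1, a protein of the meiotic chromosome axis, had 1.98 and 1.39 FPKM in sum1∆ and 1.92 and 2.00 FPKM in WT and was tested. SPO11, the enzyme that makes meiotic DNA breaks, lay just below it and was not tested, with 1.56 and 1.86 FPKM in sum1∆ and 0.143 and 0.176 FPKM in WT.

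Genes were grouped by function in 35 lists. Listed genes were matched by symbol, and those without a match were left out, so some lists cover only part of a pathway. Of the listed genes, 14 of 31 were found for glycolysis and 7 of 35 for glucose sensing and sugar uptake. For glycerol metabolism 6 of 16 were found, and for glycogen and trehalose 7 of 22. Middle and late sporulation had the highest median log2 fold change, 1.86, followed by mitochondrial ribosomal proteins at 0.94, ribosome biogenesis at 0.76 and early meiosis at 0.75. The lowest medians were those of lactose, galactose and sucrose use at -1.44, glycogen and trehalose at -1.05, glycerol metabolism at -0.86 and the TCA cycle at -0.62. A list was not tested as a set, and its count is read against the 7.71% of all tested genes called higher and the 2.83% called lower.

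**Figure D2:**
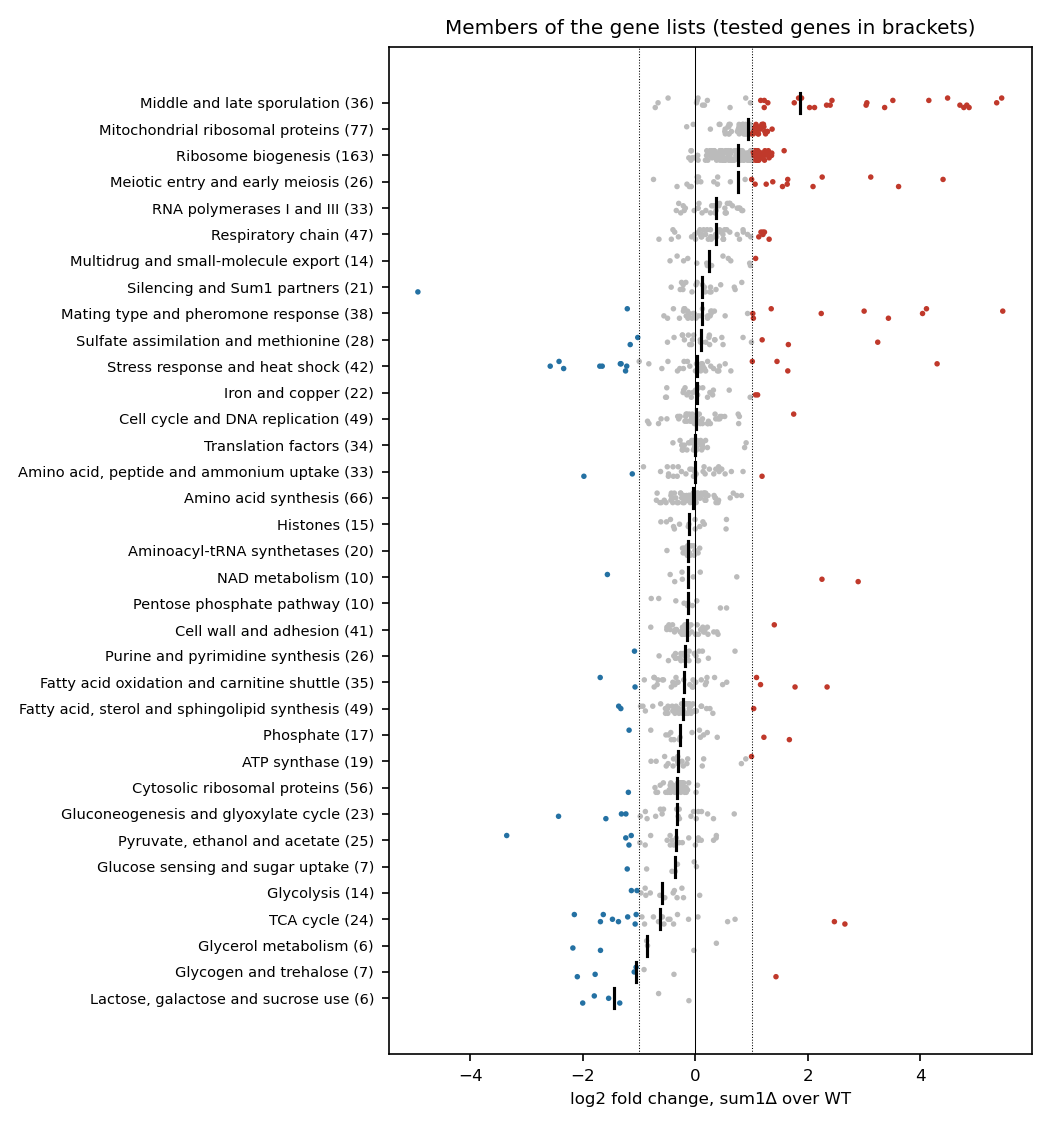
Log2 fold change in sum1∆ over WT of every tested member of the 35 gene lists, with the number tested in brackets, ordered by list median (black bar), with members called higher in red and called lower in blue. The sporulation, mitochondrial ribosome, ribosome biogenesis and early meiosis lists lie at the top and sugar, reserve and carbon lists at the bottom, with medians between 1.86 and -1.44.

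Several genes of meiosis rose in sum1∆. Of 26 tested early meiosis genes 12 rose and none fell. IME1, the activator of entry into meiosis, had 59.9 and 57.5 FPKM in the sum1∆ libraries, against 4.31 and 3.46 FPKM in the WT libraries (log2 fold change 3.62, SE 0.13, limma adjusted p = 1.66e-07). PHO92, a reader of methylated RNA in meiosis, had 90.8 and 90.2 FPKM in sum1∆ and 3.07 and 3.57 FPKM in WT. NDJ1, which acts at meiotic telomeres, had 17.5 and 19.1 FPKM in sum1∆ and 1.58 and 0.899 FPKM in WT. For all 3 genes every sum1∆ library lay at least 10-fold above the WT library with the higher value. SPO1, needed for meiotic spindle pole bodies, and MND1, a recombination factor, rose by 2.26 and 2.09 on the log2 scale. SPO22, a crossover protein, had 12 and 12.5 FPKM in sum1∆ and 2.92 and 3.62 FPKM in WT, a log2 fold change of 1.64. The SPO22 call was lost with quantile normalization (0.96), which left 7 members of the list higher and called 3 lower. Log2 fold changes of members not called ranged down to -0.74 for MEK1, a meiotic checkpoint kinase.

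Sporulation genes had the highest median of all lists. Of 36 tested middle and late sporulation genes 24 rose (66.7%) and none fell. GIP1, which targets the Glc7 phosphatase to the forming spore membrane, had 171 and 179 FPKM in sum1∆ and 3.35 and 3.21 FPKM in WT. The septin gene SPR3 had 159 and 159 FPKM in sum1∆ and 4.46 and 5.85 FPKM in WT (log2 fold change 4.71, SE 0.17, limma adjusted p = 1.79e-07). MUM3, which acts in the outer spore wall, had 109 and 111 FPKM in sum1∆ and 1.94 and 1.19 FPKM in WT. The sum1∆ libraries were close to each other for these genes and lay far above both WT libraries. CRR1, a spore wall glycosidase, and SSP2, needed for the outer spore wall, rose by 4.87 and 4.83 on the log2 scale, and RRT8, involved in making the dityrosine layer, rose by 4.78. SSP2 stood at 41.1 and 40.7 FPKM in sum1∆ and 0.70 and 0.277 FPKM in WT. Like LDS1, another member called higher, SSP2 passed the filter only through its sum1∆ level, which favours a call. PFS1, a factor of prospore membrane formation, had 127 and 125 FPKM in sum1∆ and 4.8 and 4.5 FPKM in WT. OSW2, an outer spore wall protein, rose by 4.15 on the log2 scale. Outside the list, CTS2, a sporulation chitinase, rose by 4.31 on the log2 scale. BBP1, a spindle pole body protein that also acts in mitosis, had the lowest log2 fold change of these genes, -0.71.

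Several further sporulation genes outside the rule for named genes were chosen after their values were seen because of their roles. NDT80, the activator that competes with Sum1 for middle gene promoters in S. cerevisiae, had 53.5 and 53.2 FPKM in sum1∆ and 17.2 and 17.9 FPKM in WT, a log2 fold change of 1.55. IME2, the kinase downstream of Ime1, had 16.4 and 15.8 FPKM in sum1∆ and 6.19 and 6.05 FPKM in WT, a log2 fold change of 1.26. DIT1 and DIT2, which make the dityrosine of the spore wall, had log2 fold changes of 2.12 and 3.04. Both regulators stood above IME1 in WT and had smaller log2 fold changes than the spore wall genes above. SMK1, the kinase of spore wall assembly, had 21.8 and 23.8 FPKM in sum1∆ and 14.4 and 14.6 FPKM in WT, and its log2 fold change of 0.62 was not called.

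Mating genes split into a group that rose and a larger group that was not called. Of 38 tested genes of mating type and pheromone response 9 rose and 1 fell, and the median log2 fold change was 0.12, or -0.16 with quantile normalization. AGA2, the binding subunit of a-agglutinin, had 271 and 290.4 FPKM in sum1∆ and 4.98 and 5.75 FPKM in WT (log2 fold change 5.47, SE 0.10, limma adjusted p = 7.05e-09). BAR1, which degrades alpha factor, had 21.7 and 23.2 FPKM in sum1∆ and 0.322 and 0.529 FPKM in WT, and passed the filter only through its sum1∆ level. Both sum1∆ libraries were more than 40-fold above the WT libraries for each gene. The a-specific markers found summed to 320.7 and 340.2 FPKM in sum1∆ and 26.7 and 29.6 FPKM in WT, and most of that sum in sum1∆ was AGA2. Of those 5 markers 3 rose, while STE2 and STE6, the a-factor exporter, had log2 fold changes of 0.01 and -0.16.

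Of the 3 G protein subunits of the pheromone receptor, the gamma and alpha subunits rose. STE18, the gamma subunit, had 63 and 52.8 FPKM in sum1∆ and 2.49 and 2.3 FPKM in WT, and GPA1, the alpha subunit, had 27.3 and 27 FPKM in sum1∆ and 4.68 and 5.25 FPKM in WT. STE4, the beta subunit, named after its values were seen, had 21.1 and 24.1 FPKM in sum1∆ and 19 and 17.9 FPKM in WT, and its log2 fold change of 0.28 was not called. AGA2 and STE18 have coding lengths of 273 bases, and the FPKM of such short genes rest heavily on how length was corrected. PRM1, which acts in membrane fusion of mating cells, had 28.9 and 30.5 FPKM in sum1∆ and 1.85 and 1.83 FPKM in WT. KAR4, a transcription factor of nuclear fusion, had 75.3 and 65.3 FPKM in sum1∆ and 7.95 and 7.79 FPKM in WT. STE23, a protease that processes a-factor, fell to 70.5 and 71.4 FPKM in sum1∆, against 137 and 199 FPKM in WT. Its log2 fold change of -1.21 became -0.94 and was not called without WT replicate 2.

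**Figure D3:**
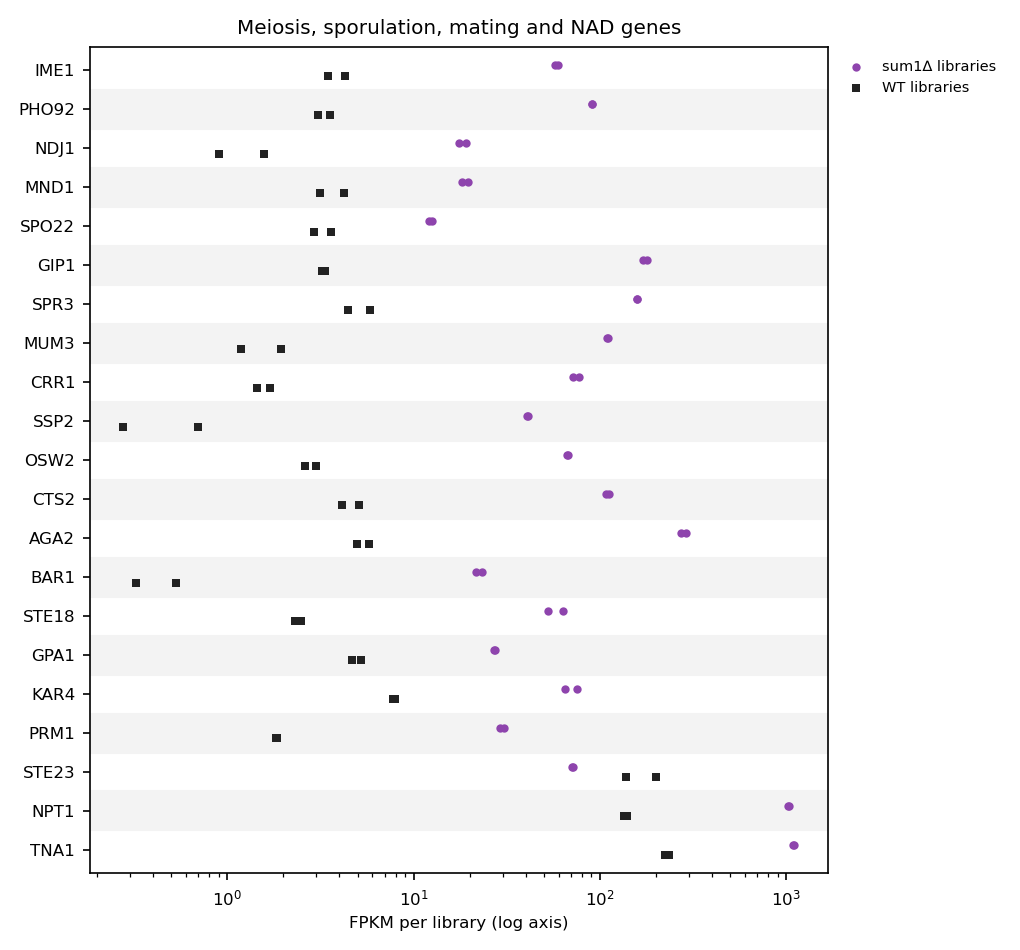
FPKM in each library (horizontal log axis) of genes of meiosis, sporulation, mating and NAD uptake and synthesis, with both sum1∆ libraries as purple circles above both WT libraries as black squares in each row. In all rows except STE23 the sum1∆ libraries lie right of the WT libraries, as for AGA2 with 271 and 290.4 FPKM in sum1∆ and 4.98 and 5.75 FPKM in WT.

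Among 10 tested genes of NAD metabolism, which supplies the cofactor of Sir2-type deacetylases, 2 rose and 1 fell. NPT1, the nicotinate phosphoribosyltransferase, had 1029 and 1026 FPKM in sum1∆ and 134 and 140.2 FPKM in WT (log2 fold change 2.90, SE 0.06, limma adjusted p = 7.05e-09). TNA1, the nicotinic acid permease, had 1085 and 1106 FPKM in sum1∆ and 225 and 234 FPKM in WT. Unlike most genes that rose, both were already above 100 FPKM in WT. POS5, the mitochondrial NADH kinase, fell to 102 and 114 FPKM in sum1∆, against 295 and 347 FPKM in WT. The median log2 fold change of the list was -0.13.

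In the list of silencing and Sum1 complex genes no member was called apart from SUM1 itself. Of 29 listed genes 21 were found by symbol, and SIR2, SIR4 and HST1 are not among them. Of 21 tested genes the other 20 had log2 fold changes of at most 0.83, the value of HST4, a Sir2-family deacetylase. RFM1, the partner that links Sum1 to its deacetylase, had 80.3 and 84.7 FPKM in sum1∆ and 53.9 and 46.6 FPKM in WT, a log2 fold change of 0.71 (limma adjusted p = 0.000219) short of the fold threshold. It was named after its values were seen. The median log2 fold change of 0.13 turned to -0.15 with quantile normalization.

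In central carbon metabolism most calls were falls. Of 24 listed genes of lactose, galactose and sucrose use only 6 were found and tested, with no lactase or lactose permease among them. Of these 6 genes 4 fell (66.7%) and none rose. GAL1, GAL7 and GAL10 encode galactokinase, the uridylyltransferase and the epimerase of the galactose pathway, which K. lactis also uses for lactose. GAL10 fell to 97.9 and 108 FPKM in sum1∆, against 343 and 376 FPKM in WT (log2 fold change -1.80, SE 0.16, limma adjusted p = 3.15e-05). GAL7 fell to 176 and 175 FPKM in sum1∆, against 495 and 530.3 FPKM in WT. GAL1 fell to 186 and 201 FPKM in sum1∆, against 476 and 511 FPKM in WT. The highest sum1∆ value of each gene was below the lowest WT value, as for all 142 falls. SUC2, named for invertase, which splits sucrose, fell by 2.00 on the log2 scale. GAL4, the activator of the galactose genes, was not called at a log2 fold change of -0.11, the least negative value of the list. In the list of glucose sensing and sugar uptake 1 of 7 tested genes fell, STD1, a regulator of glucose-responsive genes, with 99.7 and 94.8 FPKM in sum1∆ and 246 and 208 FPKM in WT.

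Glycolytic genes had negative values, most of them short of the fold threshold. Of 14 tested genes 13 had negative values, with a median log2 fold change of -0.59, and 2 fell. GCR2, an activator of glycolytic genes, had 37.3 and 38.2 FPKM in sum1∆ and 85.1 and 83.3 FPKM in WT. PFK26, a kinase that makes an activator of glycolysis, had 24.9 and 25.8 FPKM in sum1∆ and 46.5 and 60.6 FPKM in WT. Neither is an enzyme of the main pathway. With a pseudocount of 5 PFK26 was at -0.94 and not called. The PFK26 log2 fold change of -1.04 was -0.85 and not called without WT replicate 2, and 5 members were called lower without WT replicate 1. Summed over the 14 genes, the level was 34258 and 37030.2 FPKM in sum1∆ and 43535 and 52128 FPKM in WT.

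Acetate and acetaldehyde metabolism held the steepest fall of a gene with a symbol other than SUM1. ALD4, the mitochondrial aldehyde dehydrogenase that makes acetate, fell to 6.51 and 5.94 FPKM in sum1∆, against 75 and 70.9 FPKM in WT (log2 fold change -3.36, SE 0.11, limma adjusted p = 8.57e-08). ACS1, which makes acetyl-CoA from acetate, fell to 12.8 and 12.7 FPKM in sum1∆, against 33.1 and 29.8 FPKM in WT. In all 4 of 25 tested genes of pyruvate, ethanol and acetate metabolism fell and none rose. ALD5, another mitochondrial aldehyde dehydrogenase, had 310.2 and 313 FPKM in sum1∆ and 842 and 595 FPKM in WT, with WT libraries well apart, and its log2 fold change of -1.18 was -0.93 and not called without WT replicate 1. ATO3, a plasma membrane protein linked to ammonium export, fell by 1.14 on the log2 scale. The highest log2 fold change, 0.37, was that of ACS2, the other acetyl-CoA synthetase, which was not called.

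Enzymes of gluconeogenesis were among the falls. Of 23 tested genes of gluconeogenesis and the glyoxylate cycle 4 fell and none rose. FBP1, fructose bisphosphatase, fell to 71.8 and 76.7 FPKM in sum1∆, against 412 and 398 FPKM in WT (log2 fold change -2.43, SE 0.05, limma adjusted p = 1.32e-08). PCK1, the first committed enzyme of gluconeogenesis, had 65.9 and 68.5 FPKM in sum1∆ and 207 and 202 FPKM in WT. Both enzymes lay further below 0 than the lowest glycolysis gene, at -1.14. CIT2 and IDP3, named for the peroxisomal citrate synthase and isocitrate dehydrogenase of S. cerevisiae, fell by 1.31 and 1.24 on the log2 scale. ICL1, isocitrate lyase of the glyoxylate cycle, had the highest log2 fold change, 0.69, and was not called, with 13.8 and 14.3 FPKM in sum1∆ and 9.37 and 7.35 FPKM in WT.

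The TCA cycle list had the broadest fall among carbon lists of more than 10 genes, with 8 of 24 tested genes lower (33.3%) and 2 higher. LSC2 and LSC1 encode both subunits of succinyl-CoA ligase. LSC2 fell to 210.2 and 232 FPKM in sum1∆, against 954 and 1018 FPKM in WT (log2 fold change -2.15, SE 0.06, limma adjusted p = 4.37e-08). LSC1 fell to 326 and 339.6 FPKM in sum1∆, against 789.9 and 747 FPKM in WT. ACO1, aconitase, fell to 384 and 399 FPKM in sum1∆, against 1362 and 1173 FPKM in WT. The 4 libraries of each gene split by strain, as they did for all 142 falls. FUM1, fumarase, had 224 and 235 FPKM in sum1∆ and 755 and 677 FPKM in WT. The succinate dehydrogenase subunits SDH2 and SDH3 fell by 1.37 and 1.47 on the log2 scale, and SDH1 (-1.07) and the isocitrate dehydrogenase subunit IDH2 (-1.05), named after their values were seen, completed the 8.

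The 2 members that rose are known for another pathway, the methylcitrate cycle that degrades propionyl-CoA. CIT3 had 7.5 and 7.19 FPKM in sum1∆ and 0.431 and 0.217 FPKM in WT, and passed the filter only through its sum1∆ level. PDH1 had 24.7 and 24.2 FPKM in sum1∆ and 3.11 and 4.1 FPKM in WT. CIT3 and PDH1 are neighbours on a chromosome. LOC1, next to CIT3 and linked to RNA localization and ribosome assembly, was also called higher and was named after its call was seen. The libraries did not keep the strand, so reads of overlapping or antisense neighbours cannot be told apart.

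In the respiratory chain the calls were rises. Of 47 tested genes 40 had positive values, the median log2 fold change was 0.36, 6 rose and none fell. CYC7, named for an isoform of cytochrome c, had 11837 and 12117 FPKM in sum1∆ and 5453 and 4779 FPKM in WT (log2 fold change 1.23, SE 0.07, limma adjusted p = 2.20e-06). The other 5 are assembly factors rather than subunits. COX17, a copper chaperone, had 208 and 213 FPKM in sum1∆ and 103 and 89.1 FPKM in WT. COX19, COX23 and PET191, also needed to assemble cytochrome c oxidase, rose by 1.17, 1.31 and 1.20 on the log2 scale, and BCS1, which inserts the Rieske protein into the bc1 complex, rose by 1.20. NDI1, the internal NADH dehydrogenase, had the lowest log2 fold change, -0.65. Among 19 tested ATP synthase genes 14 had negative values, and 1 rose, ATP23, an assembly factor at the fold threshold (1.00, and 0.98 and not called without WT replicate 2). PET9, the ADP/ATP carrier, had the lowest log2 fold change, -0.79.

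In the pentose phosphate pathway none of 10 tested genes was called. GND1, phosphogluconate dehydrogenase, had 2105 and 2246 FPKM in sum1∆ and 2397 and 2362 FPKM in WT, a log2 fold change of -0.13 (limma adjusted p = 0.0961). ZWF1, glucose 6-phosphate dehydrogenase, had 666 and 656 FPKM in sum1∆ and 453 and 446 FPKM in WT. Its log2 fold change of 0.56 passed the p threshold but not the fold threshold (limma adjusted p = 1.79e-05).

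Genes of glycerol use and storage carbohydrates also fell. GUT2, the mitochondrial glycerol 3-phosphate dehydrogenase, fell to 77.6 and 82.7 FPKM in sum1∆, against 356 and 377 FPKM in WT (log2 fold change -2.18, SE 0.10, limma adjusted p = 1.00e-06). GUT1, glycerol kinase, fell to 36.8 and 37.3 FPKM in sum1∆, against 131 and 113 FPKM in WT. They were the 2 of 6 tested glycerol genes that fell, and none rose. Of 7 tested glycogen and trehalose genes 4 fell and 1 rose. GPH1, glycogen phosphorylase, had 31.1 and 30.0 FPKM in sum1∆ and 126 and 143 FPKM in WT, and GLC3, the branching enzyme, had 27.7 and 28.6 FPKM in sum1∆ and 92.5 and 107 FPKM in WT. So enzymes of both glycogen breakdown and glycogen synthesis were lower. TPS1, trehalose 6-phosphate synthase, and TPS3, a subunit of its complex, fell by 1.09 and 1.05 on the log2 scale, and without WT replicate 2 they were at -0.90 and -0.95 and 2 falls were left. TPS3 was also short of the fold threshold without sum1∆ replicate 1, at -0.99. ATH1, the acid trehalase, rose, with 36.4 and 35.2 FPKM in sum1∆ and 12.2 and 13.1 FPKM in WT.

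**Figure D4:**
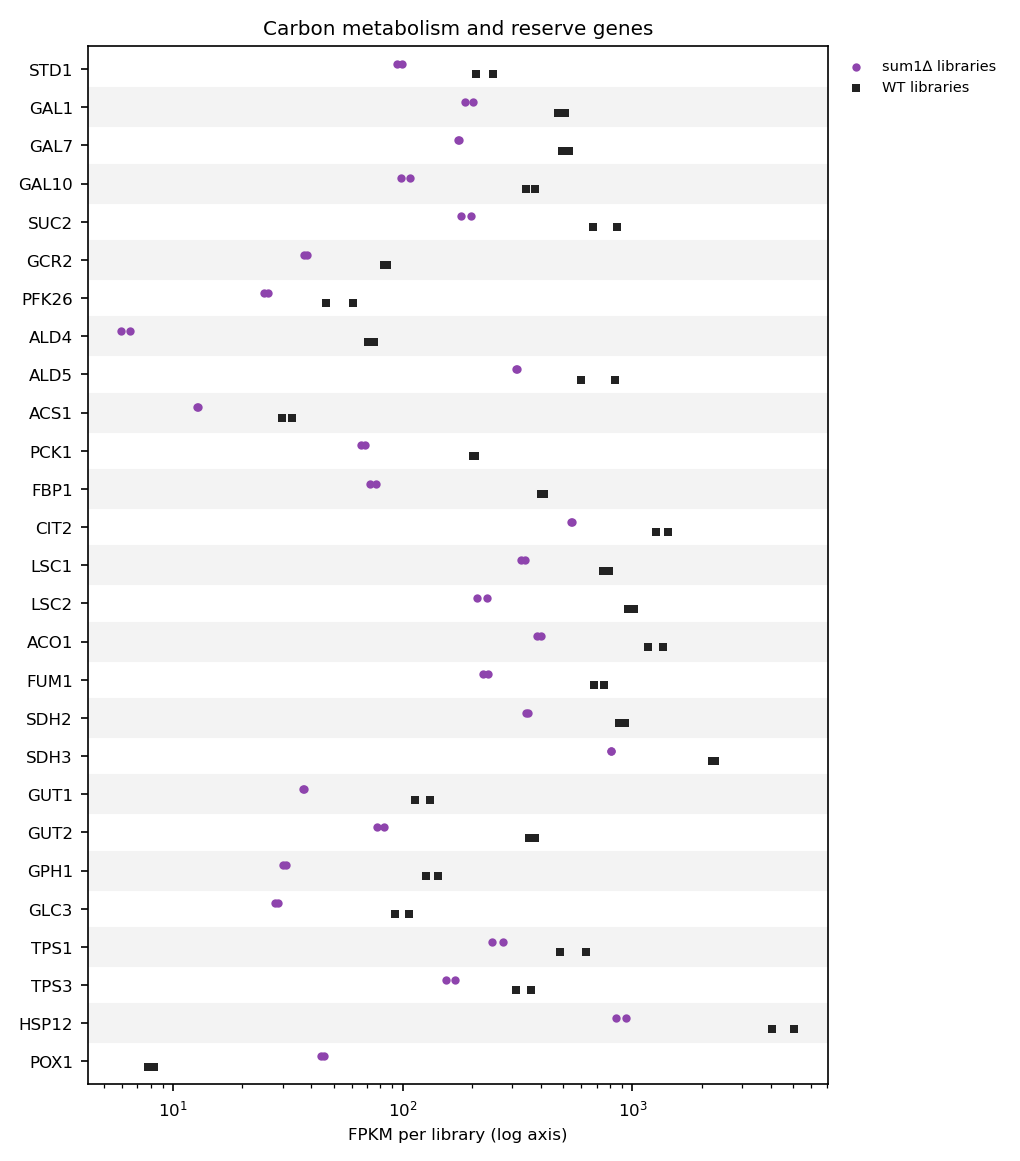
FPKM in each library (horizontal log axis) of genes of sugar use, glycolysis regulation, acetate, gluconeogenesis, TCA cycle, glycerol and reserve metabolism, with HSP12 and POX1, and with both sum1∆ libraries as purple circles above both WT libraries as black squares in each row. The sum1∆ libraries lie left of the WT libraries in every row except POX1, with 44 and 45.3 FPKM in sum1∆ and 7.74 and 8.24 FPKM in WT.

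Peroxisomal fatty acid oxidation did not move as 1 group. Of 35 tested genes 4 rose and 2 fell, with a median log2 fold change of -0.20. POX1, acyl-CoA oxidase, which begins the pathway, rose by 2.34 on the log2 scale (SE 0.07, limma adjusted p = 7.43e-08). PXA2, a subunit of the fatty acid importer, had 10.3 and 10.9 FPKM in sum1∆ and 2.14 and 2.65 FPKM in WT, and was at 0.96 and not called with quantile normalization. ECI1, an enoyl-CoA isomerase, and CTA1, the peroxisomal catalase, rose by 1.16 and 1.09 on the log2 scale. PEX11, which divides peroxisomes, fell to 48.7 and 52.4 FPKM in sum1∆, against 162 and 169 FPKM in WT, and CAT2, carnitine acetyltransferase, fell by 1.07 on the log2 scale, and was at -0.90 and not called with a pseudocount of 5. With quantile normalization 4 members were called lower.

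Lipid synthesis genes had mostly small negative values, with 41 of 49 tested members negative and a median of -0.21. ERG1, squalene epoxidase, had 256 and 301 FPKM in sum1∆ and 634 and 810.3 FPKM in WT, and SUR2, a sphingolipid hydroxylase, had 513 and 574 FPKM in sum1∆ and 1155 and 1603 FPKM in WT. These 2 fell, with log2 fold changes of -1.36 and -1.33, and 4 were called lower without WT replicate 1 or without sum1∆ replicate 2. INO4, an activator of phospholipid synthesis genes, had 22.6 and 18 FPKM in sum1∆ and 10.1 and 8.58 FPKM in WT, and its log2 fold change of 1.04 was 0.93 and not called without WT replicate 2.

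Growth genes divided between ribosome assembly, where calls were rises, and ribosomal proteins, which had small negative values. Of 163 tested ribosome biogenesis genes 157 had positive values, 41 rose (25.2%) and none fell, with a median log2 fold change of 0.76. RRP3, an RNA helicase of the small subunit pathway, had 77.6 and 74.1 FPKM in sum1∆ and 27.3 and 22.3 FPKM in WT (log2 fold change 1.58, SE 0.09, limma adjusted p = 2.58e-06). IMP4, a component of the U3 particle, had 137 and 136 FPKM in sum1∆ and 58.4 and 50.5 FPKM in WT. MAK5, an RNA helicase of the large subunit pathway, had 45.3 and 44.4 FPKM in sum1∆ and 18.6 and 15.3 FPKM in WT. Genes of both subunit pathways were thus among the 41. SPB1, an rRNA methyltransferase, and PXR1 and NOP4, which act in rRNA processing, rose by 1.36, 1.30 and 1.29 on the log2 scale. Without WT replicate 2 the count was 18.

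Of 56 tested cytosolic ribosomal protein genes 54 had negative values, with a median log2 fold change of -0.32. RPL9B, a protein of the large subunit, was the 1 member called, with 489.8 and 481 FPKM in sum1∆ and 1095 and 1125 FPKM in WT (log2 fold change -1.19, SE 0.04, limma adjusted p = 2.01e-07). Summed over the list, the level was 343932 and 342968 FPKM in sum1∆ and 432467 and 423631 FPKM in WT.

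Polymerase and translation genes were not called. Of 33 tested subunits and factors of RNA polymerases I and III 26 had positive values, with a median log2 fold change of 0.37. The highest in level, the shared subunits RPB10 and RPC10, had log2 fold changes of 0.04 and 0.05. Among 34 translation factors the median was -0.00, and TEF2 and EFT1, the elongation factors, had log2 fold changes of -0.15 and -0.27. Among 20 aminoacyl-tRNA synthetase genes 18 had negative values, with log2 fold changes of -0.17 for SES1 and -0.14 for ARC1, a synthetase cofactor. In purine and pyrimidine synthesis 1 of 26 tested genes fell, YNK1, nucleoside diphosphate kinase, with 2512 and 2568 FPKM in sum1∆ and 5506 and 5255 FPKM in WT, and it was at -0.83 and not called with quantile normalization.

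Mitochondrial ribosomal protein genes had positive values of similar size. Of 77 tested genes 75 had positive values and 28 rose (36.4%), with a median log2 fold change of 0.94 and quartiles of 0.78 and 1.05. MRPL15 had 639 and 652 FPKM in sum1∆ and 272 and 229.6 FPKM in WT (log2 fold change 1.37, SE 0.09, limma adjusted p = 5.20e-06). MRPL39 had 2324 and 2181 FPKM in sum1∆ and 1023 and 840.4 FPKM in WT. RSM19, of the small subunit, had 1372 and 1392 FPKM in sum1∆ and 606 and 567 FPKM in WT. Proteins of both mitochondrial subunits were thus included. MRPL27, MRPL8 and MHR1 rose by 1.28, 1.25 and 1.22 on the log2 scale. Summed over the list, the level was 47724 and 47484 FPKM in sum1∆ and 26278 and 24316 FPKM in WT. Without WT replicate 2 the count was 17. The list came from a name pattern that included PPE1, its lowest member at -0.15.

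Genes of the cell cycle and of chromosome replication were mostly not called. Of 49 tested genes 1 rose, POL1, the catalytic subunit of DNA polymerase alpha, with 43.3 and 43.9 FPKM in sum1∆ and 13.7 and 11 FPKM in WT (log2 fold change 1.75, SE 0.09, limma adjusted p = 1.99e-06). The median log2 fold change was 0.01, or -0.16 with quantile normalization, and the G1 cyclin CLN3 had the lowest log2 fold change, -0.85. None of 15 tested histone genes and histone regulators was called. The histone H4 genes HHF1 and HHF2, which may share reads, had log2 fold changes of 0.08 and -0.28.

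Stress genes moved in both directions. Of 42 tested genes 9 fell (21.4%) and 4 rose (9.52%), with a median log2 fold change of 0.03 that was -0.02 with quantile normalization and also without WT replicate 2. HSP12, a small membrane heat shock protein, fell to 846 and 940.2 FPKM in sum1∆, against 4045 and 5069 FPKM in WT (log2 fold change -2.34, SE 0.14, limma adjusted p = 3.63e-06). TMA17, a proteasome assembly chaperone, fell to 131 and 136 FPKM in sum1∆, against 669 and 963 FPKM in WT. SPG4, named for survival in stationary phase, fell to 7.28 and 7.34 FPKM in sum1∆, against 41.8 and 45.4 FPKM in WT. HSP104, the disaggregase, had a log2 fold change of -1.66, OM45, an outer mitochondrial membrane protein, -1.70, and RTC3 -1.33. The genes that rose included mitochondrial chaperones. HSP78, a mitochondrial disaggregase, had 97.1 and 96.3 FPKM in sum1∆ and 32.4 and 28.3 FPKM in WT, and HSP60, the mitochondrial chaperonin, had 1189 and 1195 FPKM in sum1∆ and 622 and 559 FPKM in WT, a log2 fold change of 1.01 that was 0.94 and not called without WT replicate 2. GPX2, a glutathione peroxidase, had 1819.6 and 1811 FPKM in sum1∆ and 648 and 676 FPKM in WT. MOH1, another gene of stationary phase, had 344 and 379.6 FPKM in sum1∆ and 15.9 and 19 FPKM in WT.

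Most markers of cells that have left exponential growth were lower in sum1∆. Of 8 such markers 7 were found, and they summed to 1726 and 1900 FPKM in sum1∆ and 5475 and 7052 FPKM in WT. HSP12 made up most of the WT sums, with 4045 and 5069 FPKM, and 846 and 940.2 FPKM of the sum1∆ sums. Of these 7 genes 5 fell (HSP12, CTT1, SPG4, TMA17 and TPS1), MOH1 rose, and HSP26 was not called at a log2 fold change of 0.43. None of the 7 was at 0 in any library. HSP12, SPG4, TMA17 and MOH1 also belong to the stress list and TPS1 to the glycogen and trehalose list, so these markers are not separate from those lists. CTT1, the cytosolic catalase, had 89.2 and 96.8 FPKM in sum1∆ and 176 and 278 FPKM in WT, and WT replicate 2 had the higher sum of the WT libraries. The part of growth stage in the carbon, reserve, stress, ribosome biogenesis and mitochondrial results was not tested.

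Sulfur, nitrogen and mineral lists held few calls each. Over all tested genes 7.71% were called higher and 2.83% lower. MET14, the kinase of sulfate assimilation, had 84.3 and 88.1 FPKM in sum1∆ and 7.89 and 8.51 FPKM in WT (log2 fold change 3.25, SE 0.11, limma adjusted p = 1.37e-07). MET28, a cofactor of the sulfur gene activator, and MET16, the reductase after Met14, rose by 1.66 and 1.19 on the log2 scale. Of 28 tested sulfur genes 3 rose (10.7%) and 2 fell (7.14%). Those that fell were MET5, a subunit of sulfite reductase, and MET17, the sulfhydrylase that takes up the sulfide. These falls, of 1.16 and 1.02 on the log2 scale, were at -0.99 and -0.89 and not called without WT replicate 2. MET17 was also at -0.96 and not called with a pseudocount of 5. Steps of the same pathway therefore had calls in opposite directions. Among 66 amino acid synthesis genes none was called, with log2 fold changes of -0.12 for ILV5, a valine and isoleucine enzyme, and -0.32 for GLN1, glutamine synthetase.

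Of 33 tested genes of amino acid, peptide and ammonium uptake 2 fell (6.06%) and 1 rose (3.03%). PTR2, the peptide permease, fell to 99.9 and 98.2 FPKM in sum1∆, against 403 and 385 FPKM in WT. PUT4, the proline permease, had 63.5 and 64.4 FPKM in sum1∆ and 159 and 124 FPKM in WT, and its log2 fold change of -1.12 was -0.94 and not called without WT replicate 1. DAL1, allantoinase, rose by 1.19 on the log2 scale. Of 17 phosphate genes 2 rose (11.8%) and 1 fell (5.88%). SPL2, a regulator of phosphate uptake, and PHO4, the activator of phosphate genes, rose by 1.67 and 1.22 on the log2 scale. PHO91, a vacuolar phosphate transporter, fell by 1.18. Of 22 iron and copper genes 2 rose (9.09%), near the 7.71% of all tested genes, and none fell. FET4, a low-affinity iron transporter, had 43.2 and 42.8 FPKM in sum1∆ and 19.2 and 19.6 FPKM in WT. FRE1, a ferric reductase, had 745 and 771 FPKM in sum1∆ and 412 and 315 FPKM in WT, a log2 fold change of 1.07 that was 0.88 and not called without WT replicate 2. The FET4 log2 fold change of 1.11 was 0.93 with quantile normalization and 0.98 with a pseudocount of 5, and was not called in either.

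At the cell surface few genes were called. Of 41 tested cell wall and adhesion genes 1 rose, EXG1, an exoglucanase, with 48.2 and 48.5 FPKM in sum1∆ and 17.1 and 18.2 FPKM in WT. Of 14 export genes 1 rose, RSB1, a sphingoid base transporter, with 224 and 229 FPKM in sum1∆ and 112 and 102 FPKM in WT. MDM36, which anchors mitochondria at the cell edge, was among the largest falls outside the lists, with 43.8 and 48.8 FPKM in sum1∆ and 227 and 208 FPKM in WT.

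Genes without a symbol made up 35.1% of the rises and 43.0% of the falls, against 21.2% of all tested genes. KLLA0F24596g had 181 and 182 FPKM in sum1∆ and 0.779 and 0 FPKM in WT. KLLA0C17226g had 159 and 160.1 FPKM in sum1∆ and 0.249 and 0.115 FPKM in WT, and KLLA0A05687g had 207 and 203 FPKM in sum1∆ and 0.518 and 0.957 FPKM in WT. All 3 were below 1 FPKM in both WT libraries and passed the filter through their sum1∆ level. KLLA0B09064g fell to 41.1 and 39.2 FPKM in sum1∆, against 935 and 751 FPKM in WT. KLLA0C18117g fell to 240.0 and 266 FPKM in sum1∆, against 2536 and 3851 FPKM in WT. KLLA0A11110g fell by 2.95 on the log2 scale, with WT libraries as far apart as 743 and 378 FPKM.

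The sum1∆ strain was also set directly against sir2∆ and sir4∆, of the same mating type and cassette deletions, with no WT library in the contrast. In sum1∆ 34 genes were higher (0.677% of those tested) and 85 lower (1.69%) than in sir2∆, in all 2.37%. Against sir4∆, 635 were higher (12.7%) and 244 lower (4.86%), in all 17.5%. Of the 387 rises over WT, 26 were also called higher than in sir2∆ and 2 lower. Of the 142 falls, SUM1 included, 56 were also called lower than in sir2∆ and none higher. Of the developmental lists, 4 of 36 sporulation genes (11.1%) and 1 of 38 mating genes (2.63%) were higher in sum1∆ than in sir2∆ and none was lower, and no early meiosis gene was called. SPR3 had 159 and 159 FPKM in sum1∆ and 37.4 and 35.9 FPKM in sir2∆ (log2 fold change 2.09, SE 0.17, limma adjusted p = 9.30e-05). GIP1 had 171 and 179 FPKM in sum1∆ and 62.6 and 68 FPKM in sir2∆, and KAR4, the mating gene, had 75.3 and 65.3 FPKM in sum1∆ and 25.4 and 28.4 FPKM in sir2∆. NPT1 did not differ past the thresholds, with 1029 and 1026 FPKM in sum1∆ and 1125 and 1045 FPKM in sir2∆ (log2 fold change -0.08, SE 0.06, limma adjusted p = 0.296).

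Carbon and stress genes were also called between sum1∆ and sir2∆. Lower in sum1∆ than in sir2∆ were 7 of 23 genes of gluconeogenesis and the glyoxylate cycle (30.4%) and 6 of 24 TCA cycle genes (25%). So were 3 of 6 glycerol genes (50%) and 10 of 42 stress genes (23.8%), against 1.69% of all tested genes. ALD4 had 6.51 and 5.94 FPKM in sum1∆ and 86.2 and 111 FPKM in sir2∆ (log2 fold change -3.77, SE 0.11, limma adjusted p = 4.93e-07). FBP1 had 71.8 and 76.7 FPKM in sum1∆ and 347 and 336 FPKM in sir2∆. GUT1 had 36.8 and 37.3 FPKM in sum1∆ and 136 and 113 FPKM in sir2∆. In each case sum1∆ was below both sir2∆ libraries and both WT libraries, and the latter held for all 142 falls. ACO1, FUM1 and SDH3 had log2 fold changes of -1.42, -1.32 and -1.21 against sir2∆, whereas LSC2 was not called at -0.81, with 390.0 and 385 FPKM in sir2∆. Of growth genes, 2 of 163 biogenesis genes (1.23%) and none of 77 mitochondrial ribosomal protein genes were higher in sum1∆ than in sir2∆. The share over all tested genes was 0.677%. The median log2 fold changes of these 2 lists were 0.49 and 0.34.

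Against sir4∆ both developmental and growth genes were called. In sum1∆ 24 of 36 sporulation genes (66.7%) and 10 of 26 early meiosis genes (38.5%) were higher than in sir4∆. So were 124 of 163 ribosome biogenesis genes (76.1%) and 63 of 77 mitochondrial ribosomal protein genes (81.8%), against 12.7% of all tested genes. Lower were 10 of 14 glycolysis genes (71.4%), against 4.86% of all tested genes. RRP3 had 77.6 and 74.1 FPKM in sum1∆ and 23.7 and 24 FPKM in sir4∆, and MRPL15 had 639 and 652 FPKM in sum1∆ and 159 and 178 FPKM in sir4∆. HSP12 had 846 and 940.2 FPKM in sum1∆ and 21638 and 18592 FPKM in sir4∆ (log2 fold change -4.49, SE 0.14, limma adjusted p = 7.71e-08). ALD4 had 49 and 47.7 FPKM in sir4∆ and FBP1 323 and 331 FPKM, again above both sum1∆ libraries. The 3 comparisons share the sum1∆ libraries.

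**Figure D5:**
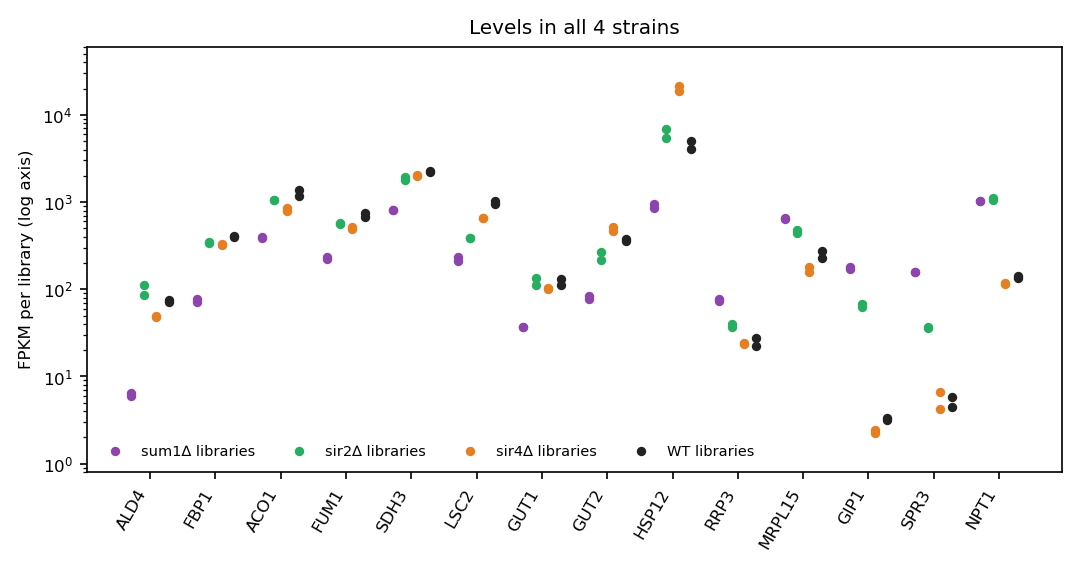
FPKM of 14 genes (vertical log axis) in both libraries of each strain, in the order sum1∆, sir2∆, sir4∆ and WT. The sum1∆ libraries are lowest for ALD4, FBP1, the TCA cycle and glycerol genes and HSP12, and highest for RRP3, MRPL15, GIP1 and SPR3, whereas NPT1 lies close in sum1∆ and sir2∆.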

How the data were processed

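The authors deposited 1 table per library with FPKM values for 5076 genes. Per the labels' protocols, hot phenol gave total RNA, DNase removed DNA, and non-stranded libraries were read as single reads of 50 bases. Per the submitters' processing notes, TopHat2 2.0.10 and Cuffnorm 2.2.1 were used. Neither build nor annotation is given in the sources used here, so no coordinates are printed. All 5076 identifiers matched locus tags of RefSeq's gene table (ASM251v1), which gave 3959 a symbol and was used for names and gene order. Close paralogs may share reads.

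Genes averaging 1 FPKM or more over the sum1∆ and WT libraries were tested with limma 3.58.1 (R 4.3.3) on log2(FPKM + 1), a pseudocount of 1, with an intensity trend. All 8 libraries in 4 groups shared the spread, with 4 residual degrees of freedom and a prior of 4.01. Calls needed an adjusted p (Benjamini-Hochberg) under 0.05 and a log2 fold change of 1 or more in size. No count model was used because the values are FPKM. Depth was estimated from low genes (at most 30 reads, lengths over 400 bases), of which 83.3% to 100% came out whole within 0.1. It was used for no test. Counting noise alone would give a chi-square per degree of freedom near 1 between libraries of a strain, and it was 4.65 for sum1∆ and 16.8 for WT. Named genes were SUM1, the 12 largest rises and falls with a symbol, the 3 largest of each without, and per list up to 6 called members in each direction or, with none called, the 2 with the highest level. The comparison, lists and rule were chosen with earlier results of these data known. Alternatives were other pseudocounts, filters and scalings, a fit on the 4 libraries alone, no trend, no fold threshold, a replicate block and leaving out each library. Python 3.11.15, numpy 2.4.6, pandas 2.3.3, scipy 1.17.1 and matplotlib 3.10.9 were used for the other steps.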

Additional observations from a re-analysis of the deposited data

How the results depend on the processing

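Of the counts of calls in the comparisons with WT, sir2∆ and sir4∆, all stayed within 1.5 times their value under every alternative run except the removal of the fold threshold. Without that threshold 1688 genes were higher and 1633 lower in sum1∆ than in WT, 1214 and 837 against sir2∆, and 1824 and 1863 against sir4∆. Leaving out each library in turn gave 342 to 428 rises and 125 to 150 falls against WT, 30 to 40 and 79 to 89 against sir2∆, and 622 to 670 and 215 to 283 against sir4∆. The lower end against WT came without WT replicate 2, the shallowest of these 4 libraries. With a pseudocount of 5 the counts against WT were 330 and 120. Of 119 called genes named by the rule 17 lost their call under at least 1 alternative, 10 of them without WT replicate 2, and none reversed. With a replicate block the counts were 387 and 142 against WT, 35 and 85 against sir2∆, and 635 and 244 against sir4∆. Same-numbered sum1∆ and WT libraries did not deviate together (r = 0.02), so the numbers were not taken as pairs. Depth limits genes near 1 FPKM most, and with 2 technical libraries a strain the errors do not cover variation between cultures.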

Other observations

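Outside the lists, some further nuclear genes for mitochondrial gene expression were higher in sum1∆. They were chosen after their values were seen. Genes of this kind that did not rise were not counted, so no share is given. RPO41, the mitochondrial RNA polymerase, had 42.3 and 41.2 FPKM in sum1∆ and 18 and 16.1 FPKM in WT, and MTF1, its transcription factor, had 90.9 and 91.6 FPKM in sum1∆ and 33.9 and 27.5 FPKM in WT. IFM1, the mitochondrial initiation factor, had 53.7 and 53.6 FPKM in sum1∆ and 19 and 14.8 FPKM in WT. The mitochondrial tRNA synthetase genes NAM2, MSY1, MSW1 and ISM1 had log2 fold changes of 1.17, 1.41, 1.08 and 1.01. MRM1, a methyltransferase of mitochondrial rRNA, and the mitochondrial chaperone gene MDJ1 rose by 1.77 and 1.39 on the log2 scale.

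Other genes chosen in the same way fell. FRD1, a soluble fumarate reductase, had 169.7 and 188 FPKM in sum1∆ and 411 and 548 FPKM in WT, and HEM13, an enzyme of haem synthesis, had 331 and 374 FPKM in sum1∆ and 769.8 and 967 FPKM in WT. PRC1, the vacuolar carboxypeptidase, and ATG8, a protein of autophagosome membranes, fell by 1.36 and 1.12 on the log2 scale. GAD1, glutamate decarboxylase, fell by 1.18 on the log2 scale. MIC26, of the mitochondrial inner membrane, had 85 and 89 FPKM in sum1∆ and 183 and 172 FPKM in WT, and fell by 1.02 on the log2 scale.

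Among 82 tested genes within the outermost 10 at each of 12 chromosome ends, 10 rose (12.2%) and 9 fell (11.0%), with a median log2 fold change of -0.17, against 7.71% and 2.83% of all tested genes. Genes that rose included 33 runs of neighbours holding 71 genes, with at most 3 genes in a run. Whether this is more than the same number of genes placed at random would give was not tested.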
